A study of Mus musculus with 38 samples.

Results

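The comparison set GL261 glioma cells that had shared a dish with BV2 microglia for 16 h at 0.1% oxygen or less against GL261 cells kept alone at the same oxygen level, to ask which tumor cell transcripts differ when microglia are present during hypoxia. It used 4 of the series' 38 samples, 2 co-culture and 2 monoculture libraries, chosen by their labels alone. Genes that BV2 cells express far more than GL261 cells do can reach the tumor cell libraries with a few leftover microglia, so every gene whose mean level in hypoxic BV2 monoculture was at least 4-fold that in hypoxic GL261 monoculture (CPM, counts scaled to the library total) was set apart, and is called BV2-high here. Of 55487 genes in the table, 4729 were BV2-high. The test covered 15189 genes with enough counts, of which 14108 were outside that set and 1081 were in it.

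GL261 is a mouse glioma cell line, here stably carrying the green fluorescent protein plasmid pEGFP-N1, and BV2 is an immortalized line of mouse microglia. All 4 samples had the same medium with 2% serum, and BV2 cells were added to attached GL261 cells at 1 to 2. Cells were fixed in 3% glyoxal and their polyadenylated RNA was sequenced. The same co-culture and monoculture at 21% oxygen, again 2 libraries each, gave the normoxic values set beside the hypoxic ones, and 4 hypoxic BV2 libraries gave the partner's levels. The labels call the samples biological replicates without saying how the cultures were separated in time, so p-values measure the spread between these samples. Both groups carry the plasmid, both lines are single established lines, and these are dishes without other brain cells.

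The 8 GL261 libraries held 15410976 to 27238933 counts each. Glial genes marked the hypoxic GL261 libraries: Vim, which encodes vimentin, stood between 4741 and 5689 CPM and Sox2, a neural stem cell factor, between 482 and 636 CPM. Among 15 glioma and glial markers, Sox9 was at 0 in all 4 and Fabp7 at 0 in 3. Over 20 microglia and macrophage markers, the summed level was 9.58 and 7.35 CPM in monoculture, 28.6 and 15.8 CPM in co-culture, and 6460 and 6293 CPM in hypoxic BV2 monoculture. Csf1r, Laptm5, Cd53, Ctss and Ptprc, which BV2 cells express, were higher in both hypoxic co-cultures than in both monocultures. Laptm5 for example stood at 0.147 and 0.223 CPM alone and at 2.96 and 2.11 CPM in co-culture. Not all markers that BV2 cells express were higher. Lyz2 overlapped, at 4.55 and 2.89 CPM alone and 4.56 and 2.33 CPM in co-culture, with 415 and 354 CPM in hypoxic BV2 monoculture. Adgre1 stood at 0.0734 and 0 CPM alone and at 0 in both co-cultures, with 23.8 and 27.7 CPM in hypoxic BV2 monoculture. Aif1, C1qa, C1qb and C1qc were at 0 in all 4 hypoxic GL261 libraries, but hypoxic BV2 monoculture held at most 2.46 CPM of any of them. Of the 20 markers 11 and 9 were at 0 in the monocultures and 5 and 6 in the co-cultures. Over 121 genes all but restricted to BV2, the median level in GL261 co-culture was 0.237% ± 0.0266 (SD, n = 2) of the BV2 level in hypoxia, against 0.0351% ± 0.00157 (SD, n = 2) in monoculture and 0.773% ± 0.202 (SD, n = 2) in normoxic co-culture. The 121 genes were chosen for low levels in these same GL261 monocultures, so the monoculture value is held low by that choice. For the genes outside the BV2-high set that rose, a BV2 share at the higher hypoxic value, 0.256%, amounts to a median of 0.124% of the gain and at most 1.41%, for Nampt. The 4-fold rule that set BV2-high genes apart already keeps this part small, so it is no independent check on carry-over.

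Several signalling routes between microglia and glioma cells read out as transcription. Cytokines of the interleukin 6 family act through the shared receptor chain gp130, encoded by Il6st, and JAK kinases to activate STAT3, whose targets include acute-phase proteins and its own inhibitor Socs3. Type I interferon acts through Ifnar1 and Ifnar2 to activate factors that bind the interferon-stimulated response element (ISRE). Low oxygen stabilizes the HIF factors, which raise glucose transport, glycolysis and angiogenic signals, and cells with too little sterol process SREBP factors that drive lipid synthesis.

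The 4 interferon-induced genes below all rose, so their promoters are shown, 250 bases upstream of the annotated start on the gene's own strand, with the letters GAAANNGAAA of an ISRE or their reverse complement in capitals. Sequences and coordinates are RefSeq's for mouse build GRCm38.p6. Ifit3 (chr19:34583279-34583528, plus strand) holds matches that begin 156 and 122 bases before the start. Ifit1 (chr19:34640639-34640888, plus strand) holds them at 104 and 85, Ddx60 (chr8:61927837-61928086, plus strand) at 53 and 19, and Rsad2 (chr12:26456453-26456702, minus strand) at 120.
Ifit3: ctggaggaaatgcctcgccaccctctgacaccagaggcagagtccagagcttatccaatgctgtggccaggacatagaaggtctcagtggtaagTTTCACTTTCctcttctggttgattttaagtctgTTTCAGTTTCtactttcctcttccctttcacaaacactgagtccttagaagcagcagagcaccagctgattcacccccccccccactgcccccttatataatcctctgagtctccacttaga
Ifit1: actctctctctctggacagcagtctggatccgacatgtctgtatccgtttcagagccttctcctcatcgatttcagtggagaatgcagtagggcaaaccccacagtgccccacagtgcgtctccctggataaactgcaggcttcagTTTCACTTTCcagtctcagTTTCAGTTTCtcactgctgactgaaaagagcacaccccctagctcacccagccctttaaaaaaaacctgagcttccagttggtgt
Ddx60: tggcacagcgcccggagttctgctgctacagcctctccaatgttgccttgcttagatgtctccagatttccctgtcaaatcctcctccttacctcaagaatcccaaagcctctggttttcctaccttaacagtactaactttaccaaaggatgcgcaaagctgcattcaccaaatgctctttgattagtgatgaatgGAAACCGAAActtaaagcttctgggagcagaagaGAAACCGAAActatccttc
Rsad2: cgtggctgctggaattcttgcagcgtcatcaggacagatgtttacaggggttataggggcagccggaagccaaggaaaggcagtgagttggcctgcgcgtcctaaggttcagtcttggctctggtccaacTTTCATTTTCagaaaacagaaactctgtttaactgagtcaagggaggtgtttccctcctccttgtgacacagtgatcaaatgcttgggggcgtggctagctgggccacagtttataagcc

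Searched on both strands, the ISRE letters occurred in 3.44% of 32851 promoter windows of 300 bases, 250 before to 50 after the start, and in 16 of the 24 interferon-stimulated genes with a promoter in the table (66.7%). Of the 5 such genes that rose and have a promoter there, 4 held them: Ifit1, Ifit3, Ifit3b and Rsad2. Irf7 did not. The STAT letters TTCNNNGAA occurred in 8.30% of promoters and in 1 of 9 genes of the acute-phase list, Socs3, whose promoter (chr11:117969367-117969616, minus strand) holds them in capitals below, 154 bases before the start. A match is a description of the letters and shows no binding.
Socs3: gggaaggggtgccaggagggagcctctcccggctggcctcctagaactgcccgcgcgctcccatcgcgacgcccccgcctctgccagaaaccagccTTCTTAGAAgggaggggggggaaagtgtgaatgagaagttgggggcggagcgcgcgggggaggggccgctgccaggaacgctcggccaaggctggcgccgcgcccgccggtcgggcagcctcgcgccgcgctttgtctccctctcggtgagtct

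In hypoxia, 178 of 14108 genes outside the BV2-high set differed between co-culture and monoculture at an adjusted p under 0.05 (1.26%), 104 higher (0.737%) and 74 lower (0.525%). A gene that passed the test in this way is said below to have risen or fallen. The rises ran from 0.58 to 2.65 on the log2 scale with a median of 0.95, and the falls from -0.54 to -3.78 with a median of -1.09. The change was at least 2-fold for 50 of the genes that rose and 42 of those that fell. The median over all 14108 genes was -0.01. In all 178 the 2 co-culture libraries lay on 1 side of both monoculture libraries, which 20.4% of all 14108 genes did upward and 22.7% downward. Remarks below that groups were apart or did not overlap thus hold for each of the 178 and only describe the values. With 1 library left out at a time, the count was 292 without monoculture library 1 (204 higher and 88 lower), 75 without monoculture library 2 (32 and 43), 62 without co-culture library 1 (29 and 33) and 93 without co-culture library 2 (72 and 21), so the larger direction changed with the library left out. Of the 178, 29 passed in each of those fits, 20 of them higher and 9 lower, and 26 passed in none. With only the 4 hypoxic libraries in the fit, which leaves 2 residual degrees of freedom, 16 genes outside the BV2-high set passed, 8 higher and 8 lower. They include Serpina3n, Socs3, Adamts9, Calhm5, Limch1, Cavin2, Myl9, Irs1, Lrp4 and Mbp, while no tested member of the interferon-stimulated, hypoxia, cholesterol, immediate early, mesenchymal, YAP/TEAD, complement, ligand, receptor or glial lineage lists passed in that fit. The median of the interferon-stimulated genes was 1.07 there.

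**Figure D1:**
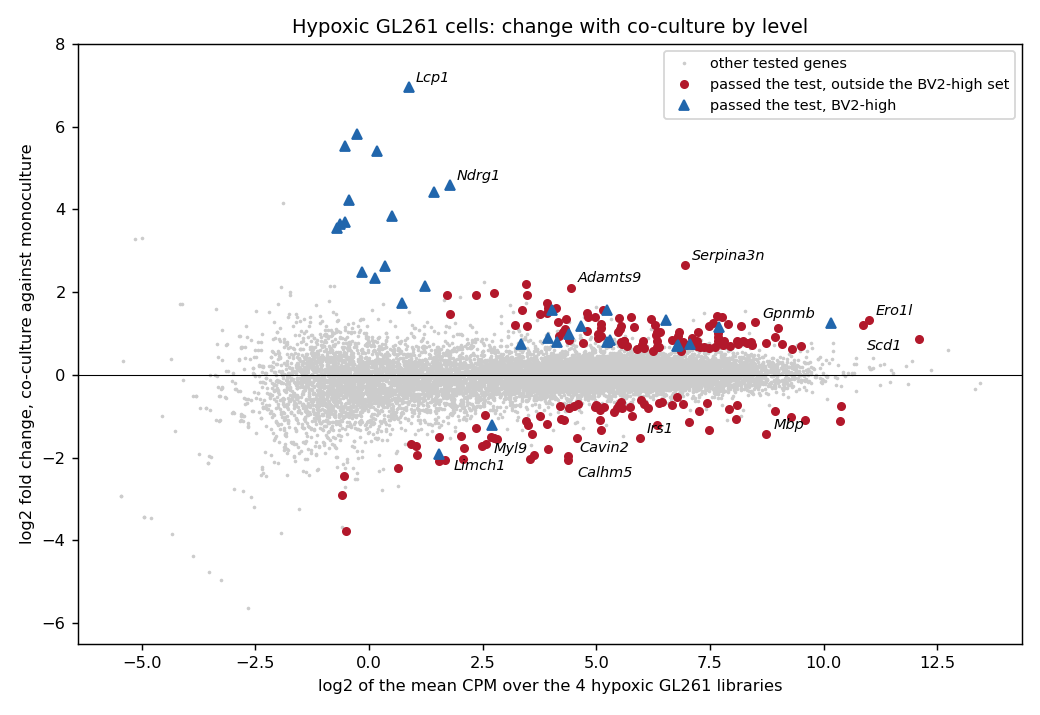
Log2 fold change between hypoxic co-culture and monoculture (vertical axis) against log2 of the mean CPM over the 4 hypoxic GL261 libraries (horizontal axis), each point 1 tested gene. Circles are the 178 genes that passed the test outside the BV2-high set and triangles the 33 BV2-high genes that passed, of which a group with low levels and log2 changes up to 6.96 for Lcp1 stands apart at the upper left.

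The acute-phase gene Serpina3n, which encodes a secreted inhibitor of serine proteases induced by STAT3 in reactive astrocytes, rose more than any other gene outside the BV2-high set. It stood at 39.0 and 28.9 CPM in the hypoxic monocultures and at 239.8 and 186 CPM in the co-cultures, so that the lower co-culture library was above both monocultures several times over. The log2 change was 2.65 ± 0.21 (SE, n = 2 against 2, adjusted p = 0.000188). Socs3, the feedback inhibitor of JAK and STAT3 signalling, stood at 26.3 and 24.0 CPM alone and at 69.2 and 61.3 CPM in co-culture (log2 change 1.37, SE 0.17, adjusted p = 0.00348). Stat3 itself stood at 127 and 96.6 CPM alone and at 309 and 226 CPM in co-culture (log2 change 1.26, SE 0.18, adjusted p = 0.00671). The groups were apart for all 3 genes, and each passed without any 1 of the 4 libraries.

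Osmr encodes the receptor chain that pairs with gp130 to bind oncostatin M. Its level was 128 and 88.0 CPM in monoculture and 297 and 198 CPM in co-culture, a log2 change of 1.19 ± 0.26 (SE, adjusted p = 0.046). The groups did not overlap, but the adjusted p was 0.187 without monoculture library 2 and 0.183 without co-culture library 1. These 4 genes were the ones that rose among 10 tested members of the acute-phase and STAT3 list, whose median log2 change was 0.87. The count was 3 to 5 with 1 library left out. Cebpd, a transcription factor of the acute phase, stood at 16.8 and 12.4 CPM alone and at 57.1 and 20.1 CPM in co-culture (adjusted p = 0.196), with most of the difference in co-culture library 1. Il6st was level, at 134 and 80.2 CPM against 137 and 105 CPM (adjusted p = 0.741).

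The list of ligands is not limited to those of Osmr and gp130. Il11, an interleukin 6 family cytokine, was the only 1 of its 5 members tested outside the BV2-high set that rose. It stood at 3.70 and 1.61 CPM in monoculture and at 11.6 and 9.92 CPM in co-culture (log2 change 1.99, SE 0.39, adjusted p = 0.0373). Both co-culture libraries were above both monocultures, and the adjusted p was 0.115 without monoculture library 2, 0.099 without co-culture library 1 and 0.0564 without co-culture library 2. Hypoxic BV2 cells held at most 0.282 CPM of it in any library. Lif, another family member, stood at 20.7 and 9.42 CPM alone and at 35.3 and 10.3 CPM in co-culture (adjusted p = 0.629), with wide overlap.

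The transcript of the cytokine oncostatin M, Osm, was present in both lines and higher in BV2 cells. In plain CPM it stood at 23.3 and 22.9 in hypoxic BV2 monoculture and at 27.8 and 25.9 in hypoxic BV2 co-culture, against 4.33 and 3.56 in hypoxic GL261 monoculture and 3.50 and 2.89 in GL261 co-culture. The GL261 libraries of both kinds were thus below all BV2 libraries. Il6 stayed under 1.49 CPM in all hypoxic libraries of both lines, Il1b stood between 1.40 and 2.59 CPM in hypoxic BV2 and at most at 0.119 CPM in GL261, and Ifnb1 at most at 0.324 CPM in any of them. Of the receptors, the interferon receptor chains Ifnar1 and Ifnar2 were present in hypoxic GL261 at 36.4 to 49.4 CPM and 16.4 to 21.7 CPM, and the interleukin 1 receptor Il1r1 at 0.237 CPM or less.

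Of 11 receptor genes tested outside the BV2-high set, 2 rose, Osmr and Il1rap, and none fell (list median 0.34). Il1rap encodes the accessory chain that completes the receptors for interleukin 1 and interleukin 33. It stood at 59.7 and 34.9 CPM alone and at 123 and 96.6 CPM in co-culture, which kept the groups apart (log2 change 1.21, SE 0.23, adjusted p = 0.0304). Neither receptor passed without monoculture library 2 or without co-culture library 1, where the adjusted p of Il1rap was 0.1 and 0.11.

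Of 34 tested interferon-stimulated genes, 33 had a positive change, and 8 rose while none fell. Their median was 1.08, against -0.01 for all genes tested outside the BV2-high set. Ifit3, Ifit3b and Ifit1 encode proteins that bind foreign RNA. Ifit3 stood at 6.83 and 7.07 CPM in monoculture and at 26.8 and 19.8 CPM in co-culture (log2 change 1.74, SE 0.18, adjusted p = 0.00138), and Ifit3b at 2.44 and 1.71 CPM against 9.53 and 6.63 CPM (log2 change 1.93, SE 0.27, adjusted p = 0.00577). Neither overlapped between groups and both passed without any 1 library, although 41.1% of the 75-base words of Ifit3 also occur in other genes, mostly Ifit3b, so reads of the pair may be shared.

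Mx2, of the antiviral Mx GTPase family but annotated as a polymorphic pseudogene, had the largest change of the list members that passed. It stood at 5.08 and 2.68 CPM alone and at 25.3 and 10.9 CPM in co-culture (log2 change 2.20, SE 0.39, adjusted p = 0.0252). The groups were apart, with co-culture library 1 more than double library 2. Irf7, the transcription factor that amplifies interferon responses, stood at 19.2 and 15.3 CPM against 55.1 and 35.4 CPM (log2 change 1.39, adjusted p = 0.0122). Co-culture library 1 was the higher of the pair for both genes.

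Rsad2, which encodes the antiviral enzyme viperin, stood at 6.60 and 3.69 CPM alone and at 20.1 and 11.05 CPM in co-culture (log2 change 1.57, adjusted p = 0.0373). Rtp4 stood at 11.4 and 9.10 CPM against 29.4 and 21.0 CPM (log2 change 1.29, adjusted p = 0.0214), and Ifit1 at 8.09 and 6.21 CPM against 26.6 and 13.1 CPM (log2 change 1.46, adjusted p = 0.0455). The groups were apart for each. Ddx60, a helicase of RNA sensing that is outside the list, stood at 10.3 and 6.69 CPM against 36.8 and 15.6 CPM (log2 change 1.61, adjusted p = 0.0439). Isg15, a ubiquitin-like protein, stood at 23.9 and 17.3 CPM against 40.2 and 28.5 CPM (adjusted p = 0.325), and Ifit2 was the 1 member with a negative change, -0.33 (adjusted p = 0.518).

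The count of list members that rose depended on the libraries: 16 without monoculture library 1, 2 without monoculture library 2, 2 without co-culture library 1 and 17 without co-culture library 2, with list medians of 1.55, 0.80, 0.59 and 1.48. Ifit3 and Ifit3b were among those that passed in all 4 fits. Ifit1, the member nearest the threshold, had an adjusted p between 0.00487 and 0.198 over them. Among 9 genes of antigen presentation on MHC class I outside the BV2-high set, Tap2, a subunit of the peptide transporter, rose from 46.8 and 47.3 CPM to 79.0 and 65.3 CPM (log2 change 0.62, adjusted p = 0.0449). It did not pass with any 1 library left out (adjusted p 0.0551 to 0.243), and the list median was 0.19. C4b, a complement component of the classical pathway, stood at 4.54 and 4.66 CPM alone and at 20.6 and 14.3 CPM in co-culture (log2 change 1.92, SE 0.21, adjusted p = 0.00172). It was the only 1 of 5 tested complement genes that rose, passed in all 4 fits, and shares 22.7% of its words, mostly with C4a.

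**Figure D2:**
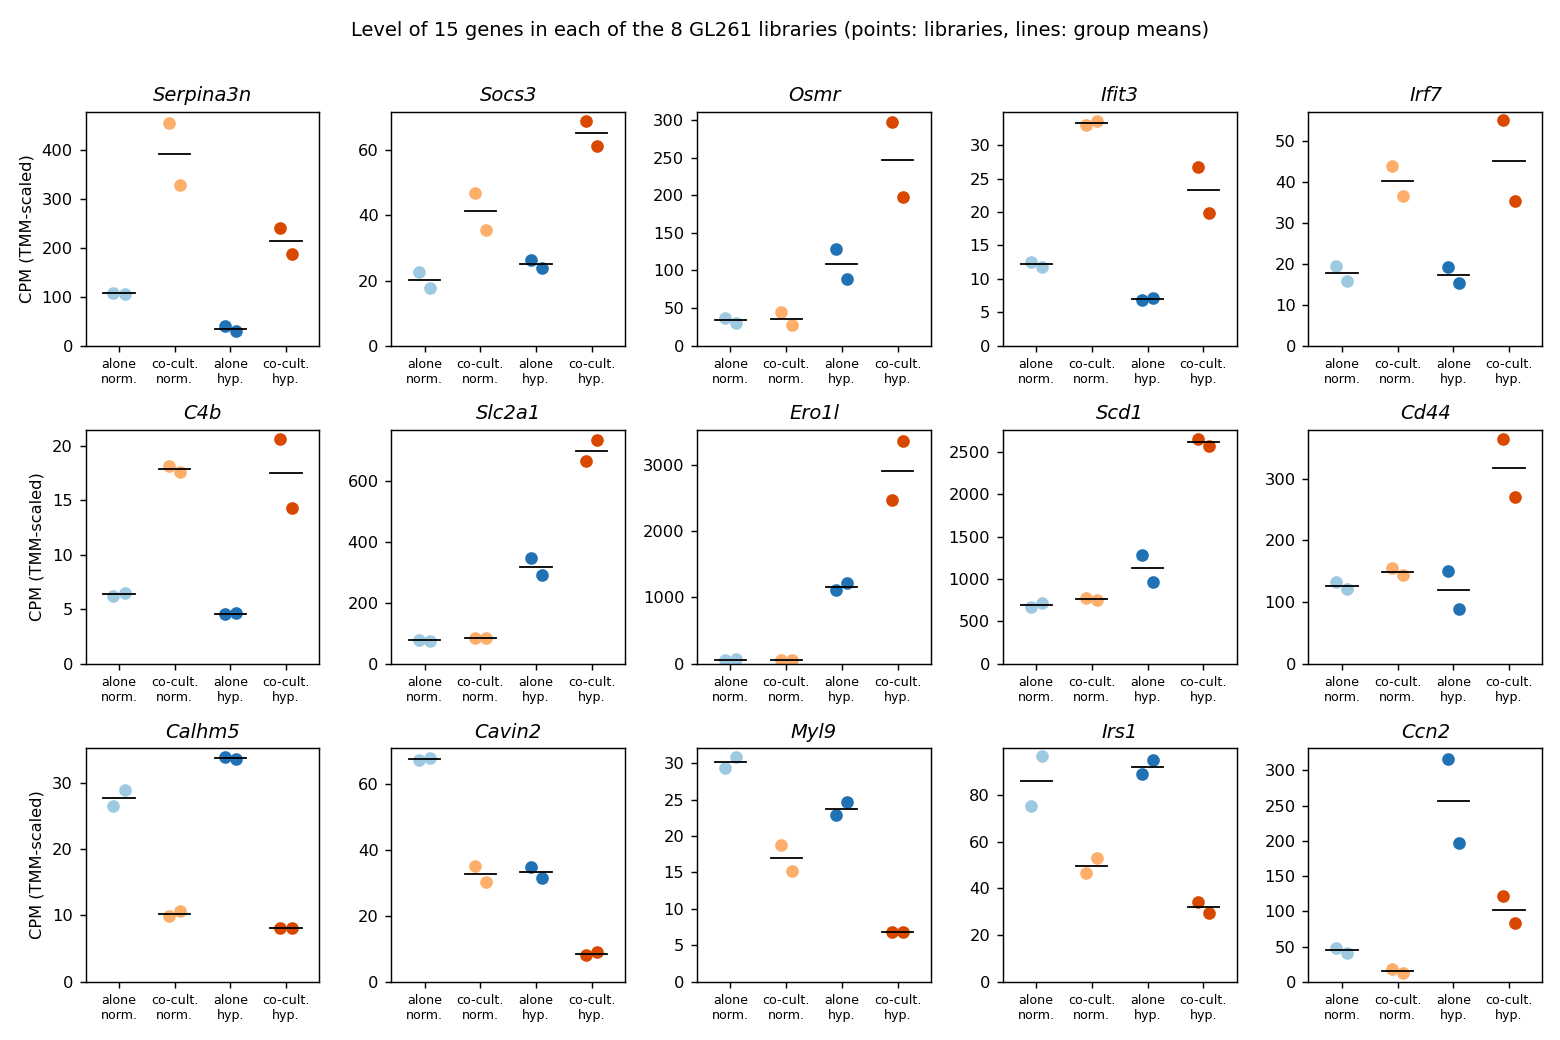
CPM scaled by TMM factors (vertical axes, each from 0) of 15 genes in the 8 GL261 libraries, grouped by culture (alone or co-culture) and oxygen (norm. for normoxia, hyp. for hypoxia); points are libraries and lines group means of 2. In hypoxia both co-culture points lie above both monoculture points for the first 10 genes and below them for Calhm5, Cavin2, Myl9, Irs1 and Ccn2; in normoxia the groups are close for Osmr, Slc2a1, Ero1l and Scd1.

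Of 26 tested members of the hypoxia list, which holds targets of the HIF factors, 5 rose with co-culture in hypoxia and none fell. All 26 changes were positive, with a median of 0.40 in hypoxia and 0.23 in normoxia, where none passed. Slc2a1, the main glucose transporter of glial cells, stood at 346 and 292 CPM in hypoxic monoculture and at 667 and 734 CPM in hypoxic co-culture, with the groups well apart. Its log2 change was 1.13 ± 0.14 (SE, adjusted p = 0.0025), and it stood at 79.1 and 75.3 CPM alone and 83.1 and 84.3 CPM in co-culture at 21% oxygen. Ero1l, the oxidase that forms disulfide bonds in the endoplasmic reticulum, changed by 1.33 ± 0.17 (SE, adjusted p = 0.00397) in hypoxia and by 0.02 in normoxia.

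Car9, a carbonic anhydrase that regulates acidity outside the cell, stood at 23.3 and 23.7 CPM alone and at 39.2 and 50.9 CPM in co-culture (log2 change 0.94, adjusted p = 0.0498). P4ha2 and Plod2 encode collagen hydroxylases. P4ha2 stood at 181 and 145 CPM against 271 and 304 CPM (log2 change 0.82, adjusted p = 0.0373), and Plod2 at 588 and 509 CPM against 857 and 924 CPM (log2 change 0.70, adjusted p = 0.0361). None of the 3 overlapped between groups, and co-culture library 2 was the higher of the pair for each, unlike the interferon genes. Slc2a1 and Ero1l passed without any 1 library. Car9 passed in none of the 4 fits (adjusted p 0.0534 to 0.256), and P4ha2 and Plod2 passed only without monoculture library 1. The list count was 5 without that library, where 1 member that had not passed before did so, and 2 without each of the others. Vegfa, the angiogenic growth factor, stood at 504 and 526 CPM alone and at 740.2 and 952 CPM in co-culture (adjusted p = 0.0541), and Ldha was level at 2218 and 1719 CPM against 2294 and 2025 CPM. The HIF letters ACGTG occurred in 19.6% of promoters and in 16 of 23 list genes with a promoter (69.6%), Slc2a1, Ero1l, Car9 and P4ha2 among them.

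Among 18 tested genes of cholesterol synthesis and uptake, 3 rose and none fell, with a list median of 0.46. Msmo1, a sterol oxidase, stood at 136 and 103 CPM alone and at 194 and 186 CPM in co-culture (log2 change 0.67, adjusted p = 0.0497). Stard4, a cholesterol carrier, stood at 122 and 94.5 CPM against 186 and 183 CPM (log2 change 0.77, adjusted p = 0.0371). The groups were apart for both. The count was 9 without monoculture library 1, and 0 without any of the other 3 libraries.

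Immediate early genes, which growth factor signals induce within minutes, gave 4 rises among 23 tested members and no fall (median 0.36). Fos, a subunit of the AP-1 factor, stood at 183 and 237 CPM alone and at 532 and 492 CPM in co-culture (log2 change 1.28, SE 0.22, adjusted p = 0.0214). Egr2 stood at 18.4 and 10.3 CPM against 48.6 and 33.2 CPM (a fold of 2.83, adjusted p = 0.0262), and Egr3, a related zinc finger factor, at 1.30 and 1.45 CPM against 5.74 and 4.70 CPM (log2 change 1.93, adjusted p = 0.011). Spry2, a feedback inhibitor of receptor tyrosine kinase signalling, stood at 110.4 and 103 CPM against 185 and 192 CPM (log2 change 0.82, adjusted p = 0.018). The co-cultures lay above the monocultures for all 4. Egr1 stood at 196 and 118 CPM against 586 and 335 CPM, a log2 change of 1.55 with an adjusted p of 0.0953. The list count was 5 without monoculture library 1, 2 without monoculture library 2, 0 without co-culture library 1 and 3 without co-culture library 2. The AP-1 letters TGANTCA were in 7.81% of promoters and in 1 of 17 list genes with a promoter.

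In the list for the mesenchymal glioma state, 3 of 21 tested members rose, Cd44, Osmr and Stat3, and none fell (median 0.46). Osmr and Stat3 are also acute-phase list members. Cd44, the hyaluronan receptor, stood at 151 and 89.1 CPM alone and at 364 and 270 CPM in co-culture, and the groups were well apart (log2 change 1.40, SE 0.22, adjusted p = 0.0136). Its adjusted p was 0.0534 without co-culture library 1, and the list count was then 1. Vim, in the same list, changed by 0.12 (adjusted p = 0.795).

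Of the matrix proteases and their inhibitors, 2 of 19 rose and none fell (median 0.16). Adamts9 encodes a protease that cuts aggrecan and versican. It stood at 9.39 and 6.85 CPM alone and at 37.7 and 32.9 CPM in co-culture, with a wide gap between groups (log2 change 2.11, SE 0.28, adjusted p = 0.00434), and passed without any 1 library. Plat, tissue plasminogen activator, stood at 70.2 and 54.8 CPM against 102 and 98.3 CPM (log2 change 0.68, adjusted p = 0.038) and passed only without monoculture library 1. The list count was 3 without that library, where 1 further member passed, and 1 without each of the others. Among 21 matrix proteins Col5a1, a fibrillar collagen chain, fell from 139 and 158 CPM to 86.7 and 94.7 CPM (log2 change -0.71, adjusted p = 0.046) and none rose (list median 0.30). Its adjusted p was up to 0.2 with 1 library left out.

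Erich3 and Fam110c complete the 12 largest rises among genes with a mean of at least 5 CPM. Erich3 stood at 8.93 and 5.89 CPM alone and at 23.7 and 22.6 CPM in co-culture (log2 change 1.63, SE 0.20, adjusted p = 0.00353), and Fam110c at 21.3 and 14.2 CPM against 53.9 and 51.5 CPM (log2 change 1.57, SE 0.20, adjusted p = 0.00397). Both were apart between groups, as the rule that named them requires.

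Caveola genes did not move together. Cav1 and Cav2 encode the caveolins that form these membrane pits. Cav1 stood at 159.8 and 107 CPM alone and at 294 and 251 CPM in co-culture (log2 change 1.03, SE 0.18, adjusted p = 0.0258), and Cav2 at 168 and 114 CPM against 268 and 267 CPM (log2 change 0.92, SE 0.20, adjusted p = 0.0452). Both lay higher in each co-culture library. Cavin2, a cavin that shapes caveolae, went the other way, from 34.8 and 31.6 CPM to 8.08 and 9.07 CPM (log2 change -1.95, SE 0.15, adjusted p = 0.000188). Cavin1, the core coat protein, stood at 346 and 200.1 CPM against 419 and 280.1 CPM (adjusted p = 0.571). The fall of Cavin2 held without any 1 library, while neither caveolin passed without monoculture library 2 or co-culture library 1, and Cav2 passed without monoculture library 1 alone.

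The largest falls among well-expressed genes were those of Calhm5, Limch1, Cavin2 and Myl9. Calhm5, of the CALHM channel family, stood at 33.9 and 33.6 CPM alone and at 8.08 and 8.05 CPM in co-culture, and replicates of each group were close (log2 change -2.06, SE 0.15, adjusted p = 0.000188). Limch1, which activates non-muscle myosin II, stood at 19.998 and 17.3 CPM against 5.05 and 4.08 CPM (log2 change -2.03, SE 0.20, adjusted p = 0.00121). Myl9, a regulatory myosin light chain, stood at 22.9 and 24.6 CPM against 6.81 and 6.86 CPM (log2 change -1.80, SE 0.17, adjusted p = 0.000749). Irs1, the adaptor of the insulin and IGF1 receptors, stood at 88.9 and 94.7 CPM against 34.2 and 29.4 CPM (log2 change -1.53, SE 0.15, adjusted p = 0.00121), with 30.3% of its words shared, mostly with the antisense gene Gm9747. All 4 were apart between groups and fell without any 1 library.

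Lrp4, a receptor in Wnt and agrin signalling, stood at 53.4 and 44.3 CPM alone and at 19.9 and 19.0 CPM in co-culture (log2 change -1.33, SE 0.14, adjusted p = 0.00154) and fell in each fit with a library left out. The falls of Dll1, Fhod3, Casq2 and Lctl held in fewer of those fits. The Notch ligand Dll1 stood at 41.8 and 28.3 CPM against 16.3 and 8.33 CPM (log2 change -1.51, adjusted p = 0.0372). Its adjusted p was 0.0773 without monoculture library 1 and 0.128 without co-culture library 2. Fhod3, a formin, stood at 11.9 and 7.92 CPM against 3.91 and 3.06 CPM (log2 change -1.51, adjusted p = 0.0214, and 0.106 without co-culture library 2). Casq2, a calcium-binding protein of muscle, stood at 21.7 and 13.3 CPM against 7.13 and 5.89 CPM (log2 change -1.43, adjusted p = 0.0408, and up to 0.163 with 1 library left out). Lctl, a protein of the lactase family, stood at 9.01 and 11.99 CPM against 2.97 and 4.19 CPM (log2 change -1.54, adjusted p = 0.0261, and up to 0.111). None of these overlapped between groups.

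Among 17 tested genes of the YAP/TEAD list, which report the Hippo pathway, 2 fell and none rose (median -0.10). Ccn2, a matricellular growth factor and a defining target, stood at 316 and 197 CPM alone and at 122 and 83.0 CPM in co-culture (log2 change -1.33, SE 0.24, adjusted p = 0.0261). Lats2, a Hippo kinase that is itself induced by YAP, stood at 133 and 127 CPM against 89.7 and 88.2 CPM (log2 change -0.54, adjusted p = 0.0455), with 40.6% of its words shared, mostly with Gm49361. Both genes were lower in each co-culture library. Ccn1, the nearest relative of Ccn2, stood at 669 and 529 CPM against 552 and 417 CPM (adjusted p = 0.442), with overlap, and 8 of the 17 changes were positive. Ccn2 did not pass without monoculture library 1 or without co-culture library 2 (adjusted p = 0.0504 and 0.107), and Lats2 passed in none of the 4 fits. The TEAD letters GGAATG were in 14.7% of promoters and in 6 of 11 list genes with a promoter, Lats2 among them.

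Lineage genes were mostly level, with 1 rise and 1 fall among 17 tested glial and neural genes (median 0.09). Gfap, the intermediate filament of astrocytes, stood at 6.03 and 5.09 CPM alone and at 14.4 and 11.3 CPM in co-culture (log2 change 1.20, SE 0.24, adjusted p = 0.038). S100b, a calcium-binding protein of glia, stood at 136 and 227 CPM against 68.6 and 97.2 CPM (log2 change -1.13, SE 0.24, adjusted p = 0.0426). Neither overlapped between groups, and both missed the threshold without monoculture library 2 (adjusted p = 0.138 and 0.187) and without co-culture library 1 (0.14 and 0.182). Mbp, the myelin basic protein, is outside that list. It stood at 584 and 661 CPM alone and at 255 and 207 CPM in co-culture (log2 change -1.43, SE 0.16, adjusted p = 0.00202), and fell in every fit. Sox2 changed by 0.09, Nes by -0.35 and Olig1 by 0.31, none past the threshold.

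Other lists gave few or no calls. None passed among 28 replication and mitosis genes (median -0.11), 17 NF-kB targets (0.24), 15 TGF-beta targets (0.18), 7 chemokine ligands (-0.07) or 8 metallothionein and NRF2 genes (0.03). The lowest adjusted p in those lists was 0.0844, for the TGF-beta target Tgfbi. Leaving out 1 library brought 1 NF-kB target past the threshold, without co-culture library 2, and 2 TGF-beta targets, without monoculture library 1, all 3 higher. The NF-kB median ran from -0.49 to 0.82 over the 4 fits and the chemokine median from -1.31 to 0.73. Of 22 genes of the unfolded protein and integrated stress responses, Aldh1l2, a mitochondrial folate enzyme, rose from 488 and 514 CPM to 766 and 769 CPM (log2 change 0.62, adjusted p = 0.0376). It passed in none of the 4 fits with a library left out, and the list median was 0.05.

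**Figure D3:**
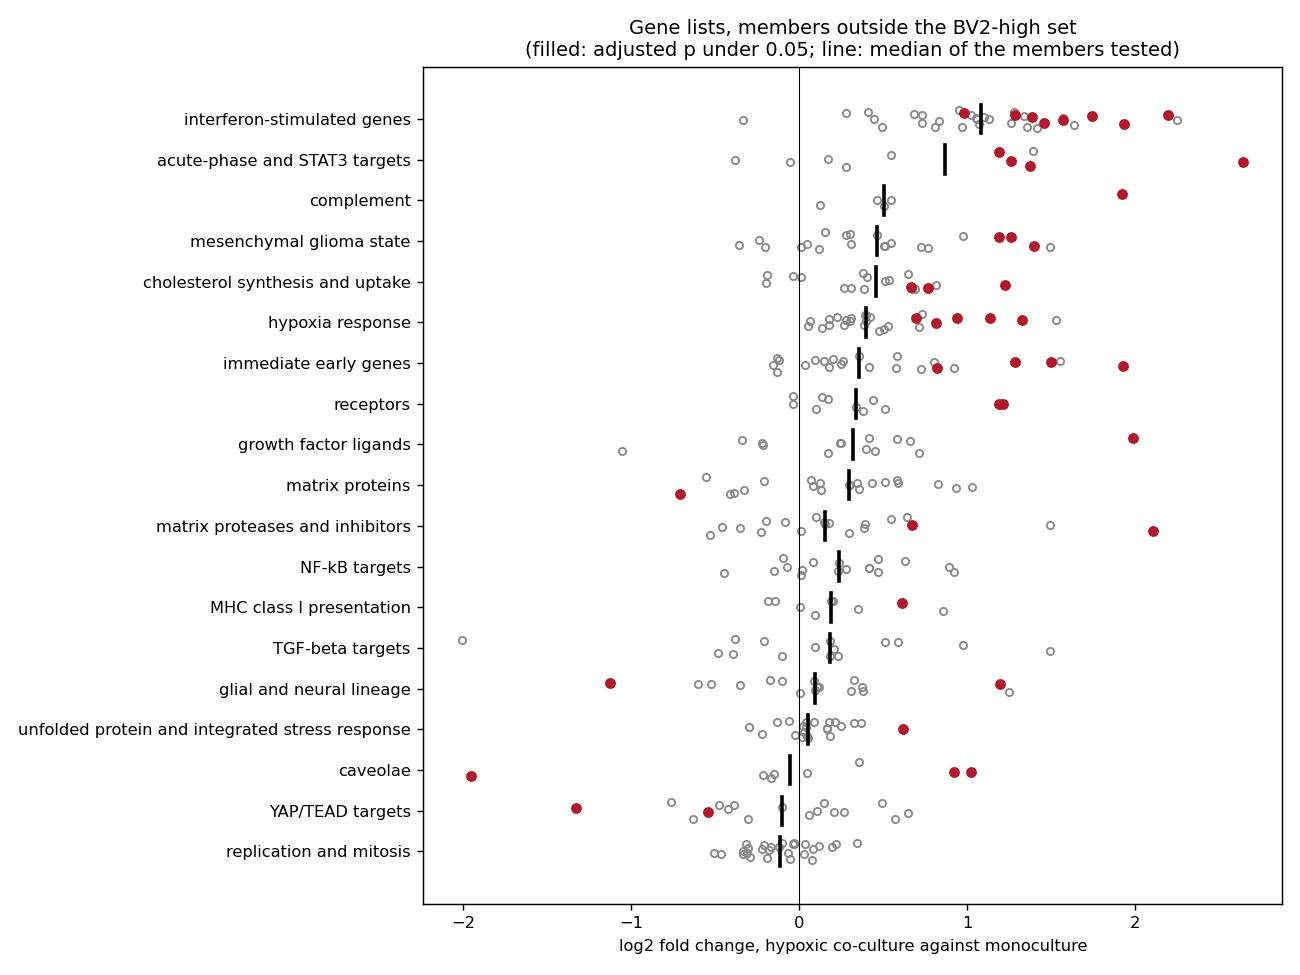
Log2 fold change between hypoxic co-culture and monoculture (horizontal axis) for the tested members of 19 gene lists outside the BV2-high set (rows). Filled points passed the test, open points did not, and black lines are list medians, which run from 1.08 for interferon-stimulated genes to -0.11 for replication and mitosis genes.

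At 21% oxygen co-culture called fewer genes outside the BV2-high set, 42 of 14108 (0.298%), 14 higher (0.0992%) and 28 lower (0.198%). The count was 10 without normoxic monoculture library 1, 0 without monoculture library 2, 1 without co-culture library 1 and 2 without co-culture library 2. In the BV2-high set 36 of 1081 passed at 21% oxygen (3.33%), a share partly set by the filter on counts, as described for hypoxia below. Of the 178 hypoxic genes, 152 had the same sign in normoxia and 25 passed in both, which is 14.0% of the hypoxic and 59.5% of the normoxic genes. The groups of the 2 comparisons share no library, but both tests came from the same fit over all GL261 libraries. The scaling and each gene's estimated spread were therefore shared. Genes that passed in both are thus no independent replication. Serpina3n, Socs3, Ifit1, Ifit3, Ifit3b, Irf7, Rtp4, C4b and Fos rose at both oxygen levels, and Calhm5, Cavin2, Limch1, Myl9, Irs1, Lrp4, Mbp, Ccn2 and Col5a1 fell at both. For the 93 genes that rose in hypoxia without passing in normoxia, the median log2 change was 0.90 in hypoxia and 0.21 in normoxia, where it ran from -0.46 to 1.54. Osmr changed by 0.10 in normoxia, Cd44 by 0.24 and Slc2a1 by 0.12, while Rsad2 changed by 1.54, Mx2 by 1.40, Adamts9 by 1.38, Gfap by 1.03, Ddx60 by 0.93 and Stat3 by 0.67. Hypoxia gave the larger change for 99 of the 104 rises and 69 of the 74 falls, genes chosen for their hypoxic change.

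The difference between the hypoxic and the normoxic effect was tested for every gene, and none of 15189 passed (0%). The lowest adjusted p was 0.344, and 1354 genes had an unadjusted p under 0.05. DESeq2 called 47 genes for this difference. A gene that passed in hypoxia and missed in normoxia is therefore not shown by the quasi-likelihood test to respond differently at the 2 oxygen levels. Across all 14108 genes outside the BV2-high set, the hypoxic and normoxic log2 changes had a Pearson correlation of 0.248 and a Spearman correlation of 0.122. These are descriptions across genes of 8 libraries and the genes are not independent.

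**Figure D4:**
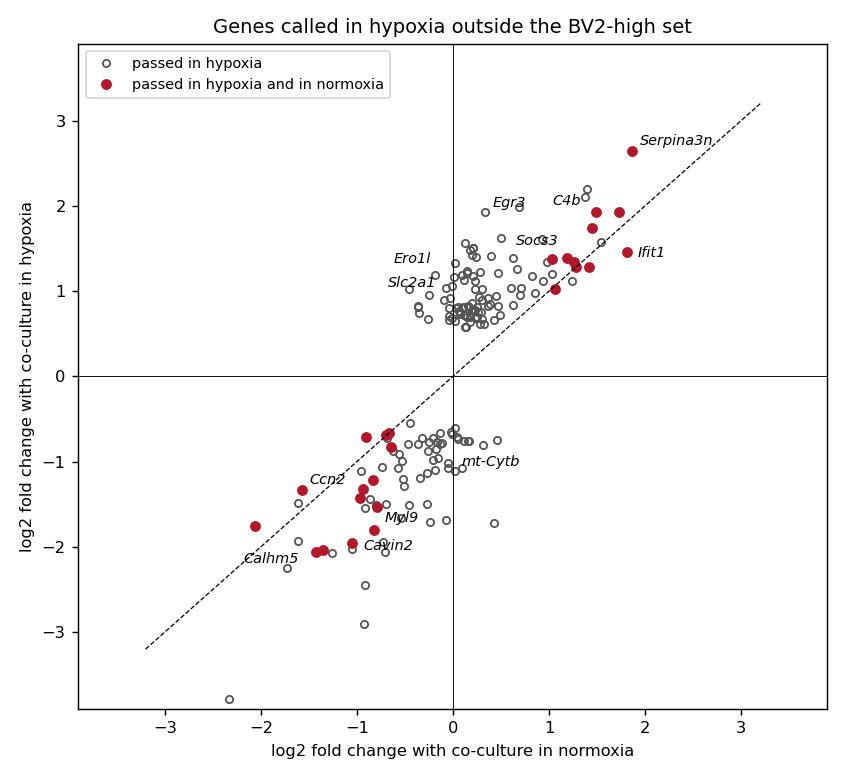
Log2 fold change with co-culture in hypoxia (vertical axis) against normoxia (horizontal axis) for the 178 genes that passed in hypoxia outside the BV2-high set; filled points are the 25 that also passed in normoxia and the dashed line marks equal change. Ero1l and Slc2a1 lie near 0 on the normoxic axis, while Serpina3n, C4b, Calhm5 and Cavin2 are away from 0 on both.

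BV2-high genes were read separately. In hypoxia 33 of 1081 tested passed (3.05%), 31 higher (2.87%) and 2 lower (0.185%), Bmf with a log2 change of -1.20 and Hdac9 with -1.92. The filter on counts accepts libraries of any group. A gene near 0 in monoculture, such as Ccl3 at 0 and 0.0535 CPM, thus entered through its co-culture libraries and could hardly fall. The share and the split of directions are therefore partly set by the filter. With a filter at a mean of 5 CPM, 12 passed, 11 of them higher. In bulk RNA of this kind, more BV2 cells left in a library and more RNA per cell cannot be told apart. The 31 that rose fell into separate ranges when the gain in GL261 was set against what a BV2 share of 0.256% would add. For 15 genes that addition was 0.735% to 3.69% of the gain, and for 16 it was 54.8% to 198%. No gene lay between those ranges. With 1 library left out, the count of 33 became 37, 15, 12 and 23 without monoculture libraries 1 and 2 and co-culture libraries 1 and 2.

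Genes of the first range were expressed by GL261 itself, at 7.59 to 682 CPM in hypoxic monoculture. Gpnmb, a glycoprotein of lysosomes and melanosomes, stood at 655 and 706 CPM alone and at 1530 and 1703 CPM in co-culture (log2 change 1.25, SE 0.15, adjusted p = 0.00248). Ubash3b, a phosphatase that restrains tyrosine kinase signalling, stood at 21.4 and 16.5 CPM against 59.6 and 52.4 CPM (log2 change 1.56, SE 0.17, adjusted p = 0.00154). Hmga1, an architectural chromatin protein, stood at 58.0 and 48.0 CPM against 135 and 129.9 CPM (log2 change 1.32, SE 0.18, adjusted p = 0.00488), with 46.9% of its words shared, mostly with Hmga1b. The co-cultures were clearly above the monocultures for these 3, which passed in every fit with a library left out.

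Bhlhe40, a repressor induced by HIF, stood at 148 and 109 CPM against 281 and 293 CPM (log2 change 1.16, adjusted p = 0.00397) and also passed in every fit. Lpin1, a phosphatidate phosphatase, stood at 18.3 and 12.5 CPM against 38.6 and 31.4 CPM (log2 change 1.18, adjusted p = 0.0195). Runx1, a transcription factor of the mesenchymal list, stood at 11.1 and 5.09 CPM against 30.4 and 18.2 CPM (log2 change 1.57, adjusted p = 0.046). Both were apart between groups, and neither passed without monoculture library 2 or without co-culture library 1, where the highest adjusted p was 0.0897 for Lpin1 and 0.185 for Runx1.

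Genes of the second range were near the detection limit in GL261 monoculture, at 0.897 CPM or less, where 3 counts amount to 0.110 and 0.167 CPM. They include Csf1r, the receptor of colony-stimulating factor 1, Laptm5, a lysosomal protein of blood cells, the chemokines Ccl3 and Ccl9, and Ndrg1. Ndrg1, a HIF target, stood at 0.267 and 0.268 CPM alone and at 7.38 and 5.78 CPM in co-culture, against a mean of 2495 CPM in hypoxic BV2 monoculture. Csf1r stood at 0.343 and 0.375 CPM against 2.33 and 1.36 CPM, with a mean of 1086 CPM in hypoxic BV2. Laptm5 stood at 0.153 and 0.214 CPM against 3.15 and 2.15 CPM, with 1777 CPM in hypoxic BV2. For the genes of this range the gain was 0.129% to 0.466% of the BV2 monoculture level. All 16 are among the 121 genes whose median gave the BV2 share, so the share and their gain are not independent measurements.

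**Figure D5:**
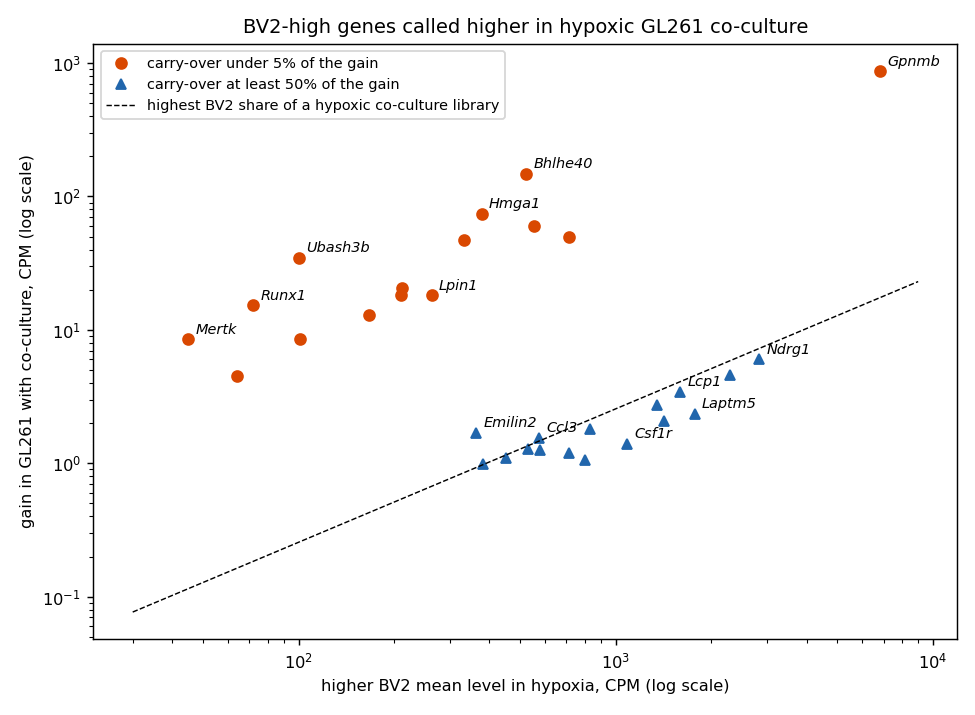
Gain in mean CPM of GL261 with hypoxic co-culture (vertical axis, log scale) against the higher of the mean CPM in hypoxic BV2 monoculture and co-culture (horizontal axis, log scale) for BV2-high genes that rose. The dashed line is a BV2 share of 0.256%; circles such as Gpnmb, Ubash3b and Bhlhe40 lie far above it and triangles such as Ndrg1, Laptm5 and Csf1r lie near it.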

How the data were processed

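The deposited file is a table of read counts per gene for GL261 and BV2 libraries. The authors trimmed, aligned and counted reads with Trimmomatic 0.36, STAR 2.6, Picard 2.17.1, SAMtools and HTSeq 0.9.1 on mm10, per the submitters' processing notes. The strand setting of the counting, the gene annotation and how BV2 cells were removed from GL261 cells are not given in the sources used here, so antisense partners may share reads. From these deposited counts, edgeR 4.0.16 (R 4.3.3) gave the main test: TMM scaling, genes with at least 10 counts in enough libraries (filterByExpr), 1 quasi-likelihood fit over all 8 GL261 libraries in 4 groups (4 residual degrees of freedom), and Benjamini-Hochberg adjustment over all 15189 genes, with a threshold of 0.05. The standard error is the log2 change divided by the square root of F. GL261 levels are CPM scaled by TMM, except in the paragraphs on markers and on Osm, which use plain CPM. BV2 levels, the BV2-high rule and the BV2 share also use plain CPM. So do the gains set against that share and the monoculture ranges of the BV2-high genes. Total counts were 15410976 to 27238933 per GL261 library, where 3 counts amount to 0.110 to 0.195 CPM. The fit was tested on simulated data.

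Named genes outside the BV2-high set are the 12 largest rises and 12 largest falls with a mean of at least 5 CPM over the hypoxic libraries, no overlap and no predicted-gene name, plus list members that passed and up to 4 others per list. From the BV2-high set the 5 largest rises by the same rule are named. Lcp1, Bmf, Hdac9, Nampt and the genes of the closing section were picked after their values were seen. Members and lists were chosen with earlier results of these data known. The BV2 share of a library is the median ratio of its level to the BV2 level over 121 genes with at least 20 CPM in BV2 and at least 100-fold more than in GL261 monoculture. Word sharing was counted over 75-base stretches of annotated exons. Alternatives covered DESeq2 1.42.0, scaling, filters, a replicate block, other sets of libraries and other BV2-high rules. No column of the table was left without a sample. Some genes counted in the lists are not reported here by name.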

Additional observations from a re-analysis of the deposited data

How the results depend on the processing

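No named gene that passed changed direction under any setting that was run, but the split of all calls and some list medians did. The hypoxic groups did not overlap in any of the 178 genes called outside the BV2-high set. Leaving out 1 library could therefore hardly reverse their direction, and the kept direction is no added evidence. The 104 higher and 74 lower genes of hypoxia became 32 and 43 without monoculture library 2, and 29 and 33 without co-culture library 1. With 1 library left out, medians that changed sign include those of the ligands (0.58 to -0.56), NF-kB targets (0.24 to -0.49), MHC class I genes (0.19 to -0.13) and chemokines (-0.07 to 0.73). The 178 genes called in hypoxia outside the BV2-high set became 403 with DESeq2, 634 without a filter on low counts (324 higher), 383 with all 16 libraries of both lines in the fit and 16 (8 higher) with the 4 hypoxic libraries alone, where 2 residual degrees of freedom remain; DESeq2 size factors gave 181, a filter at 5 CPM 151, leaving out BV2-high genes before adjustment 163, and other BV2-high rules 165 to 182. Of the 178, DESeq2 also called 176. The range was 62 to 292 with 1 library left out.

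The 33 BV2-high genes became 56 with DESeq2, 103 without a filter, 12 at 5 CPM, 4 with 4 libraries, 121 with 16, and 12 to 37 with 1 library left out. In normoxia, the 42 genes outside the BV2-high set became 120 with DESeq2, 254 without a filter, 10 at 5 CPM, 13 without BV2-high genes, 78 with 4 libraries, 103 with 16, and 0 to 10 with 1 library left out; the 36 BV2-high genes became 107 without a filter, 1 at 5 CPM, 129 with 16 libraries and 1 to 11 with 1 left out. The difference between oxygen levels, with 0 genes, gave 47 with DESeq2 and 73 without a filter.

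Libraries with the same replicate number had deviations that correlated by 0.369 between the hypoxic groups. Over all pairs of GL261 groups the correlation ran from 0.0433 to 0.369, all positive, with a mean of 0.18. No label says that a number marks a shared batch, so the numbers do not establish pairs, and the main fit leaves them out. A fit with the replicate number as a block called 564 genes outside the BV2-high set (331 higher) and 90 BV2-high genes in hypoxia, 155 and 71 in normoxia, and 0 for the difference between oxygen levels. Depth limits genes near 3 counts, 0.110 to 0.195 CPM.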

Other observations

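The lists in these paragraphs were drawn up after the values had been seen, so their counts are descriptions. Genes of fatty acid synthesis and activation rose beside the sterol genes, 5 of 17 tested with none falling (median 0.37). Scd1, the desaturase that makes oleic acid, stood at 1283 and 965 CPM in hypoxic monoculture and at 2656 and 2575 CPM in hypoxic co-culture (log2 change 1.22, SE 0.16, edgeR adjusted p = 0.00434), with the groups far apart. Acsl3, which activates fatty acids for lipid droplets, stood at 119.7 and 98.7 CPM against 268 and 319 CPM (log2 change 1.43, adjusted p = 0.0025). Acss2, which makes acetyl-CoA from acetate, stood at 33.5 and 23.3 CPM against 63.7 and 66.7 CPM (log2 change 1.19, adjusted p = 0.00932). All 3 passed without any 1 library, and in normoxia they changed by 0.15, 0.20 and -0.18 with none past the threshold. Scd2 and Srebf1, the lipogenic SREBP factor, changed by 0.87 and 0.75 and passed only without monoculture library 1 among the 4 fits that leave out a library.

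Feedback genes of the ERK pathway and ETS factors gave 8 rises among 19 tested (median 0.71), including Egr2, Egr3 and Spry2 above. Errfi1, an inhibitor of EGF receptor signalling, stood at 64.0 and 47.5 CPM alone and at 121 and 107 CPM in co-culture (log2 change 1.03, adjusted p = 0.0098). The ETS factors Etv5 and Etv1 changed by 0.95 and 0.83. The list count was 10 without monoculture library 1, 2 without monoculture library 2, 0 without co-culture library 1 and 3 without co-culture library 2. Contractile and calcium-handling muscle genes gave 7 falls among 19 (median -0.87) and 3 to 5 with 1 library left out. Besides Myl9 and Casq2 they include Cnn2, a calponin, at 223 and 173 CPM against 113 and 103 CPM (log2 change -0.87, adjusted p = 0.0245) and Hspb2, a small heat shock protein, at 13.9 and 17.5 CPM against 7.19 and 6.40 CPM (log2 change -1.20, adjusted p = 0.0152). The Notch ligand Jag1 stood at 81.3 and 65.9 CPM against 36.2 and 37.5 CPM (a fold of 0.501, adjusted p = 0.00638) and, with Dll1, was 1 of 2 falls among 11 Notch genes.

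Transcripts of the mitochondrial genome were lower in hypoxic co-culture: 5 of 12 fell, all 12 changes were negative, and the median was -0.76 in hypoxia against 0.04 in normoxia. The gene mt-Cytb, of respiratory complex III, stood at 1761 and 1833 CPM alone and at 775 and 884 CPM in co-culture (log2 change -1.12, adjusted p = 0.00519, and 0.0534 without co-culture library 1). At 21% oxygen it stood at 6769.9 and 7182 CPM against 6913 and 7202 CPM. The complex I gene mt-Nd1 stood at 1217 and 880.1 CPM against 552 and 440.1 CPM in hypoxia (log2 change -1.08, adjusted p = 0.0218). The list count was 5 without either monoculture library, 1 without co-culture library 1 and 2 without co-culture library 2. Interferon-induced GTPases and restriction factors gave 8 rises among 21 (median 0.90), with Irgm1, a GTPase of cell-autonomous immunity, at 47.7 and 34.8 CPM against 120.4 and 89.9 CPM (log2 change 1.35, adjusted p = 0.00577). That count was 9, 2, 1 and 8 without monoculture libraries 1 and 2 and co-culture libraries 1 and 2.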
